A study of Mus musculus with 11 samples.

Results

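The genes described here are the 28 genes of cholesterol synthesis and of its control by SREBP2 that the deposited expression table holds under their symbols, out of 12932 genes in all. They were chosen by name along the pathway and not by their values, though with earlier results of these data known. Of these genes, 2 supply acetoacetyl-CoA, 4 lead to and through mevalonate and 3 make the isoprenoid units. A further 3 make squalene and lanosterol, 9 turn lanosterol into cholesterol, 6 control SREBP2 and 1 carries sterol. The list does not hold every enzyme of the pathway. The study sorted alveolar macrophages (AMs), the resident macrophages of the airspace that take up and break down surfactant lipid, from 9-week-old C57BL/6J mice, and asked how the loss of the nuclear receptors RXRα and RXRβ alters them. Bulk RNA-seq was made of 11 libraries in 3 groups. The 4 libraries named mAM_WT are mature AMs (CD11b-/SiglecF+) of littermates without Cre and with both floxed genes, CD11cCre- Rxrabfl/fl, called control mAMs here. The 4 libraries named mAM_KO are AMs of the same gate from CD11cCre+ Rxrabfl/fl mice, called Cre+ mAMs. The 3 libraries named ImmAM_KO, with replicate numbers 2 to 4, are immature AMs (CD11b+/SiglecF+) of CD11cCre+ Rxrabfl/fl mice, called Cre+ ImmAMs. Every animal carried the floxed alleles of *Rxra* and *Rxrb*, and the *Cd11c* promoter that drives Cre is active in AMs and also in other CD11c-expressing cells. There were no immature AMs of control mice among the libraries. Cre+ ImmAMs therefore differed from control mAMs in genotype and in gate at once, which cannot be told apart. By their labels they shared the genotype of Cre+ mAMs and differed from them in the gate. Whether both came from the same animals is not given.

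Animal cells make cholesterol from acetyl-CoA through mevalonate, isoprenoid diphosphates, squalene and lanosterol, mostly in the membrane of the endoplasmic reticulum (ER). The genes are switched on together by SREBP2, a transcription factor held in that membrane: when sterol is low, its escort SCAP carries it to the Golgi, where a pair of proteases set its active part free, and when sterol is high, INSIG proteins keep SCAP in the ER. AMs handle large amounts of cholesterol from surfactant, and RXRs are the obligate partners of the sterol-sensing receptors LXR and of PPARγ.

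The reads counted ranged from 16659960 to 37873532 per library, and values are given as CPM (reads per 1000000 reads counted) on library sizes scaled by the TMM method. The study's comparisons used mAM_KO replicates 1 to 3. The tests here used the same 10 libraries, and mAM_KO replicate 4 is given beside them. *Rxra* was at 310.2 to 380 CPM in control mAMs, 334 to 419 in Cre+ mAMs and 283 to 305 in Cre+ ImmAMs, and *Rxrb* at 51.4 to 72.1, 39.3 to 55.3 and 31.9 to 35.2. The table has 1 value per gene, which includes exons that Cre leaves in place, so these values do not check the deletion. The gates were read in *Itgam*, which encodes CD11b, at 3.52 to 3.85 CPM in control mAMs, 3.93 to 9.95 in Cre+ mAMs and 168 to 174 in Cre+ ImmAMs. *Siglecf* was at 244 to 264, 198 to 241 and 19.3 to 19.7 CPM, so Cre+ ImmAMs, sorted as SiglecF+, held little of its RNA. The sum of 12 AM markers, most of it *Chil3*, was at 22029 to 28298, 26680 to 33160 and 25981 to 27786 CPM. These markers did not move together. In control mAMs and Cre+ ImmAMs, *Marco* was at 310 to 377 and 10.9 to 13.8 CPM, *Pparg* at 174 to 220 and 215 to 219, and *Ctsk* at 245 to 303 and 1059 to 1061. The summed interstitial macrophage markers (4 of 6 in the table, among them *C1qa*, *C1qb* and *C1qc*) were at 0.643 to 1.23, 2.25 to 9.09 and 205 to 223 CPM, and the monocyte markers (3 of 5) at 9.11 to 14.3, 10.7 to 23.6 and 83.0 to 91.0 CPM. Most of the monocyte sum was *Ccr2*, at 79.0 to 86.4 CPM in Cre+ ImmAMs. In bulk samples, fewer cells of a type and less RNA per cell cannot be told apart.

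Bases upstream of the start of transcription were read from RefSeq (GRCm38.p6) for 23 of the 28 genes. *Acat1*, *Fdps*, *Fdft1*, *Sqle* and *Stard4* had no entry. The 250 bases before each start were searched on both strands for TCACNCCAC, the core of the sterol regulatory element bound by SREBP2, CCAAT, the box of NF-Y that acts beside it, GGGCGG, the box of Sp1, and AGGTCA, the single site of nuclear receptors such as RXR. TCACNCCAC was found in 1 gene, *Hmgcs1*, and in 3.45% of the 29 windows of the 23 genes, against 1.05% of all 32851 promoter windows of the table. TCACNCCA, which is the same element without its last base and was added after that search, was also found in *Msmo1* and *Srebf2*, so in 3 of 23 genes and in 3 of their 29 windows, which is 10.3%, against 3.67% of all windows. CCAAT was in 19 of the 23 genes and in 19 of their 29 windows, which is 65.5%, against 33.8% of all windows and 35.9% of those of genes tested here. GGGCGG was in 20 genes and 75.9% of their windows (32.7% of all windows and 56.6% of those of tested genes). AGGTCA was in *Hmgcs1*, *Insig1* and *Dhcr7* and in 17.2% of the 29 windows (14.0% of all windows and 10.9% of those of tested genes). A match is only a match of letters. Those shown are the gene with the full element, the gene of SREBP2 itself, the gene with the largest rise in Cre+ ImmAMs (*Sc5d*), a feedback gene (*Insig1*) and the site in *Msmo1*. Capitals mark the sterol element in either form, the NF-Y box, which reads ATTGG when it lies on the other strand, and the nuclear receptor site, which then reads TGACCT, and each sequence runs from 5′ to 3′ on the strand of the gene.
*Hmgcs1*: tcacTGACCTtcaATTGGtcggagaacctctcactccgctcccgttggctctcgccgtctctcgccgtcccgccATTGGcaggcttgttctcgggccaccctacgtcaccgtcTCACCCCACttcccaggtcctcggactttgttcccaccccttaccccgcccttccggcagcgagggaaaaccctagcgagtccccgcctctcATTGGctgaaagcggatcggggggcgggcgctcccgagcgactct
*Srebf2*: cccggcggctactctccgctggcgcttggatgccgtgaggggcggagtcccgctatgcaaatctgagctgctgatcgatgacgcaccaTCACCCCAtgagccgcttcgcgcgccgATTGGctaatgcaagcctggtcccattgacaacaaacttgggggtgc
*Sc5d*: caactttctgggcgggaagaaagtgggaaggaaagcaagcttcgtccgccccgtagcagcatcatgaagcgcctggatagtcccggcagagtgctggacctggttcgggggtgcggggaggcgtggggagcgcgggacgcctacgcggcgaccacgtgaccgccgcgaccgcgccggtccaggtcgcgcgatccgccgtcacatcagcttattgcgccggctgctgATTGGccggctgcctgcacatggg
*Insig1*: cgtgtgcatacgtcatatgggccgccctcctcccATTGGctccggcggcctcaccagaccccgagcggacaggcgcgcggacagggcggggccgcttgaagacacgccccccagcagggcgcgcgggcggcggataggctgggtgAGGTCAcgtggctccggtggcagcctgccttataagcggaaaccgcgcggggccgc
*Msmo1*: tctcactattcTCACTCCAtccgcgcagcc
The stretch of *Hmgcs1* is chr13:119690101-119690350 on the plus strand, that of *Srebf2* chr15:82147019-82147180 (plus, 162 bases), that of *Sc5d* chr9:42264301-42264550 (minus), that of *Insig1* chr5:28071162-28071362 (plus, 201 bases) and the 30-base site of *Msmo1* chr8:64733737-64733766 (minus). The first 4 lie before the first base of the gene in both RefSeq and GENCODE vM21 and overlap no other gene of the latter. The *Msmo1* site begins 188 bases before the RefSeq start and lies within the gene as GENCODE draws it. *Hmgcs1* and *Srebf2* carry the element in the same orientation as the gene, 137 and 162 bases before the RefSeq start, each with an ATTGG after it. The shown stretch of *Sc5d* holds neither form of the element.

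In control mAMs, levels per kilobase of the longest annotated transcript spanned from 2.41 CPM per kb for *Tm7sf2* to 51.2 for *Hmgcs1*. After *Hmgcs1* came *Mvd* at 38.1, *Srebf2* at 32.5, *Insig1* at 31.1, *Ebp* at 29.0 and *Acat1* at 27.1 CPM per kb. At the low end stood *Lbr* at 3.77, *Lss* at 4.22, *Hsd17b7* at 4.28 and *Sc5d* at 4.53. *Hmgcs1* and *Srebf2* were thus among the best expressed genes of the list per kb, and *Sc5d* and *Hsd17b7* among the lowest. Enzymes after lanosterol stood at both ends of this order, *Ebp* near the top and *Sc5d* near the bottom. In Cre+ ImmAMs the order per kb was led by *Srebf2* at 48.4, *Mvd* at 48.0, *Insig1* at 45.4, *Msmo1* at 44.2 and *Hmgcs1* at 44.0 CPM per kb.

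In Cre+ ImmAMs, most genes of this pathway were higher than in control mAMs and in Cre+ mAMs, with the largest rises in *Sc5d* and *Msmo1* against control mAMs and in *Sc5d* and *Fdps* against Cre+ mAMs, while *Acat1* was lower in both comparisons. In Cre+ mAMs the differences from control mAMs were small and mostly negative, and 1 gene, *Srebf2*, passed the test. All 28 genes were among the 12889 genes tested in limma (1 CPM or more in at least 3 libraries), with adjustment over all of them, and a gene at p-adj under 0.05 is called.

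Between Cre+ ImmAMs and control mAMs, 19 of the 28 genes were called higher, against 22.8% of all genes tested, and 2 were called lower, against 25.3% (48.1% in either direction). Their median log2 fold change was 0.48, and that of all genes tested 0.00 (−0.003). Between Cre+ ImmAMs and Cre+ mAMs, which share their genotype, 20 were called higher and 1 lower, against 17.7% and 20.2% of all genes (37.9% in either direction), with a median of 0.62 beside −0.01 over all genes. The comparisons share libraries and are not independent of each other: 18 genes were called higher in both, *Mvk* and *Pmvk* against Cre+ mAMs and not against control mAMs, and *Acat2* against control mAMs and not against Cre+ mAMs. The 5 genes *Hmgcs1*, *Ggps1*, *Nsdhl*, *Ebp* and *Insig2* were called in none of the 3 comparisons. Counts over more than 1 comparison, here and below, were not made over all genes tested. A rise of 2-fold or more was seen in 2 genes against control mAMs and in 9 against Cre+ mAMs. By fold change, the smaller of the 2 rises, that of *Msmo1*, stood at place 1199 of the 12889 genes tested. Against control mAMs, such a rise was thus no more frequent among the 28 genes than among all genes tested. Against Cre+ mAMs, the smallest of the 9 rises, that of *Srebf2*, stood at place 1086, and *Tm7sf2*, short of 2-fold, at place 1210. *Acat1* fell by more than 2-fold in both comparisons.

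Between Cre+ mAMs and control mAMs, limma called 0 genes higher and 1 lower, against 2.25% and 2.59% of all genes tested (4.84% in either direction). Of the 28 fold changes 24 were negative, with a median of −0.16 beside 0.00 (−0.002) over all genes. An unadjusted p under 0.05 (limma) was seen in 10 of the 28 genes, 9 of them lower, beside 3042 of all 12889 genes tested. With all 4 Cre+ mAM libraries the median was −0.18 and the 1 called gene again *Srebf2*. edgeR called 0 genes higher and 1 lower, against 2.15% lower of all genes tested. DESeq2 called 0 higher and 4 lower, against 5.90% lower of all genes tested, and these 4 were *Mvk*, *Fdps*, *Sqle* and *Srebf2*. The count of lower genes depended on single libraries. It was 7 without mAM_KO replicate 2 (*Srebf2*, *Fdps*, *Sqle*, *Hmgcs1*, *Fdft1*, *Cyp51* and *Acat1*), against 3.49% of all genes tested. Without mAM_KO replicate 3 it was 0, against 0.53%. There 5 of the 28 genes had an unadjusted p under 0.05 (limma), beside 2242 of all 12830 genes tested.

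The coefficient of variation was larger over the 4 Cre+ mAM libraries than over the 4 control mAM libraries in 19 of the 28 genes. Summed over the 28 genes, they held 1318, 1487, 1231 and 1402 CPM in replicates 1 to 4, against 1473 to 1639 in control mAMs and 2012 to 2069 in Cre+ ImmAMs. Of replicates 1 to 3, replicate 2 was the highest in 20 of the 28 genes, replicate 3 the lowest in 13 and replicate 1 the lowest in 12. These counts, and that of the coefficient of variation, were not made over all genes tested. They are not shown to be particular to these 28 genes. In replicates 1 to 4, 14, 9, 17 and 14 genes lay below the lowest control library (27.0%, 25.0%, 30.1% and 20.2% of all genes tested) and 1, 4, 3 and 4 above the highest (25.5%, 24.6%, 27.8% and 22.5%). Replicate 2 also stood nearest to the control mAMs in *Itgam*, at 3.93 CPM against 7.87, 9.95 and 7.81 in replicates 1, 3 and 4, and in *Krt79*, an AM gene, at 402 CPM against 181, 116 and 217, with 594 to 759 in control mAMs. Not every AM gene did so. In *Pparg* it stood furthest, at 233 CPM against 219, 224 and 231, with 174 to 220 in control mAMs. *Chil3* was at 19337 CPM against 17691, 23887 and 17338, with 13182 to 18297 in control mAMs. In 2 sex-linked genes replicate 2 lay outside the range of the control mAMs. *Xist* was at 55.5 CPM against 458, 237 and 188, with 119 to 539 in control mAMs. The Y-linked *Ddx3y* was at 107 CPM against 46.2, 79.3 and 59.95, with 39.7 to 100.4 in control mAMs. The part of these differences in the values of the sterol genes was not tested. In each Cre+ ImmAM library 20 to 23 of the 28 genes lay above the highest control library, against 34.1% to 35.3% of all genes tested, and 3 or 4 below the lowest, against 35.1% to 36.5%.

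**Figure D1:**
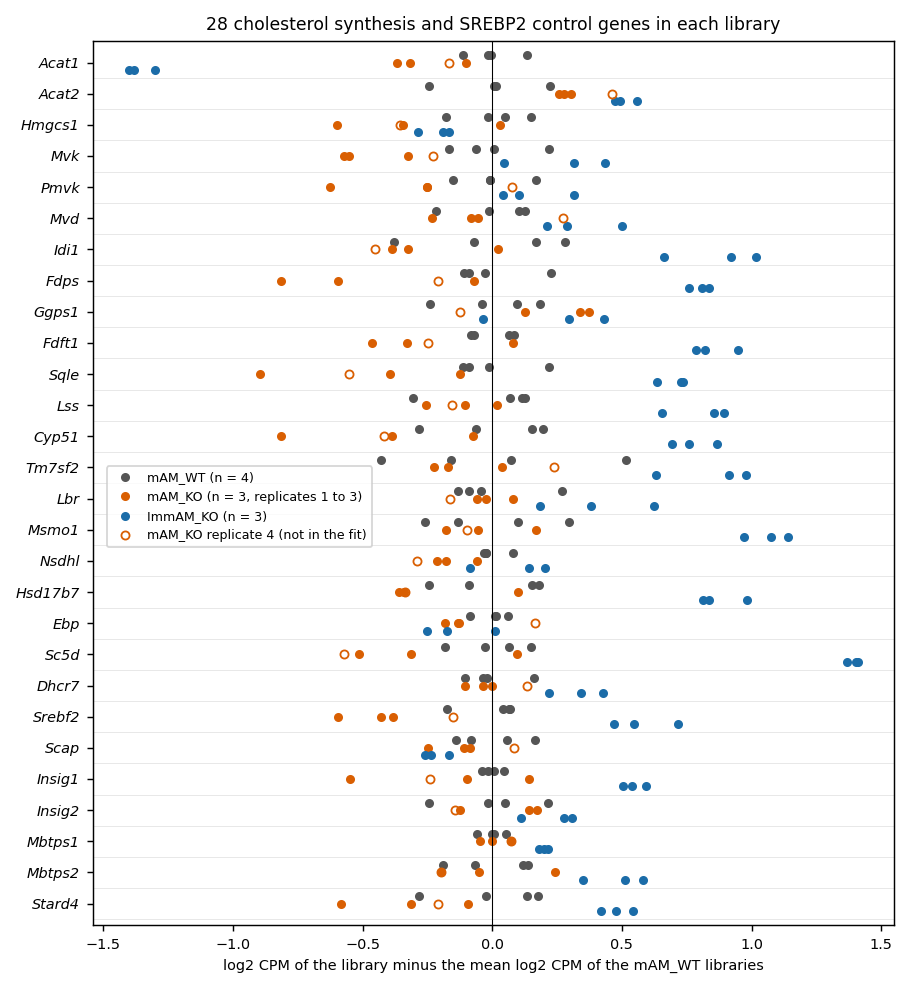
Level of each of the 28 genes (rows, in pathway order) in each library, as log2 CPM minus the mean log2 CPM of the 4 control mAM libraries (horizontal axis). Each point is a library: grey control mAMs (mAM_WT), orange Cre+ mAMs (mAM_KO, replicate 4 open), blue Cre+ ImmAMs (ImmAM_KO). The blue points stand to the right of all others from *Idi1* to *Msmo1* in most rows, furthest in *Sc5d*, and to the left in *Acat1*.

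**Figure D2:**
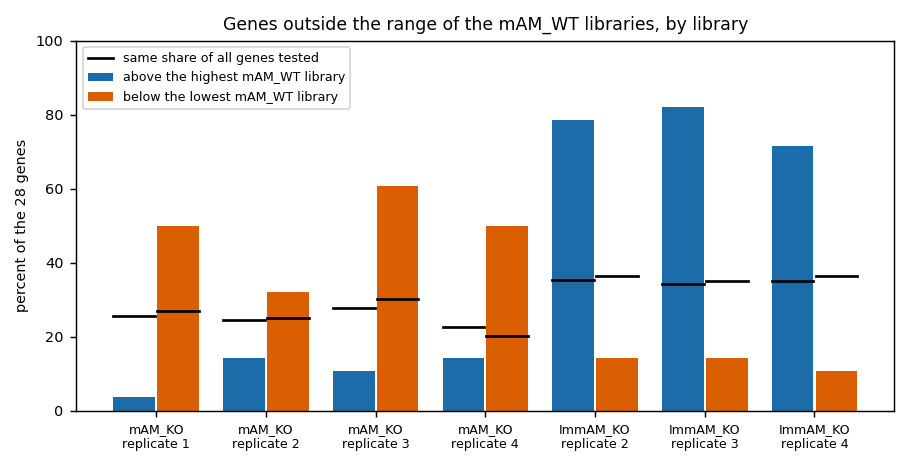
Percent of the 28 genes that lay above the highest (blue bars) or below the lowest (orange bars) control mAM library, for each of the 7 libraries of Cre+ mice, with black lines at the same percent over the 12889 genes tested. The blue bars stand for 20 to 23 genes in Cre+ ImmAMs and 1 to 4 genes in Cre+ mAMs.

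The first step of the pathway joins acetyl-CoA units. *Acat1* (chromosome 9, 53580522 to 53610382; all positions on GRCm38) encodes the mitochondrial thiolase, which also serves ketone body and isoleucine metabolism. It was at 91.6, 90.9, 101 and 85.1 CPM in control mAMs, 71.3, 85.8, 73.8 and 81.9 in Cre+ mAMs and 34.8, 37.4 and 35.3 in Cre+ ImmAMs. The Cre+ ImmAM libraries stood far below all others, and the ranges of the mAM groups overlapped by 1 library. *Acat1* fell in Cre+ ImmAMs against control mAMs (−1.36 on the log2 scale, SE 0.0840, p-adj = 3.58e-08, limma) and against Cre+ mAMs (−1.10 on the log2 scale, SE 0.0898, p-adj = 8.68e-07, limma) under every alternative tried, and was not called in Cre+ mAMs (−0.26 on the log2 scale, SE 0.0840, p-adj = 0.0883, limma). *Acat2*, the cytosolic thiolase that feeds sterol synthesis, was at 17.8, 17.9, 15.0 and 20.6 CPM in control mAMs, 21.2, 21.9, 21.5 and 24.4 in Cre+ mAMs and 26.1, 24.9 and 24.6 in Cre+ ImmAMs. All 7 libraries of Cre+ mice stood above the 4 control libraries. It rose in Cre+ ImmAMs (0.51 on the log2 scale, SE 0.110, p-adj = 0.00203, limma), while the difference of Cre+ mAMs was not called (0.28 on the log2 scale, SE 0.110, p-adj = 0.148, limma), nor was that between the Cre+ groups (0.23 on the log2 scale, SE 0.118, p-adj = 0.145, limma). Of the 60-base windows of its transcripts 37.0% also occur in other genes, mostly *Acat3*, so its reads may be split between them.

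Of the 4 genes of the steps to and through mevalonate, 1 was called higher in Cre+ ImmAMs against control mAMs, 3 against Cre+ mAMs, and in Cre+ mAMs none was called by limma and 1 (*Mvk*) by DESeq2. *Hmgcs1* (chromosome 13, 119690379 to 119708260), the cytosolic HMG-CoA synthase and the gene with the full element in its promoter, was at 196, 175, 183 and 156 CPM in control mAMs, 139, 180.4, 117 and 138 in Cre+ mAMs and 155, 145 and 157 in Cre+ ImmAMs. The 3 groups overlapped, and mAM_KO replicate 2 stood among the control libraries while replicate 3 was the lowest of all. *Hmgcs1* was not called in Cre+ mAMs (−0.30 on the log2 scale, SE 0.122, p-adj = 0.155, limma), in Cre+ ImmAMs against control mAMs (−0.22 on the log2 scale, SE 0.122, p-adj = 0.166, limma; 95% interval −0.48 to 0.05) or between the Cre+ groups (0.09 on the log2 scale, SE 0.130, p-adj = 0.632, limma; 95% interval −0.19 to 0.37). Against control mAMs it was called lower in 1 of 10 alternatives, the fit of only the 2 groups compared (p-adj = 0.0496, limma). Rises as large as those of *Idi1* or *Msmo1* lay outside both intervals.

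*Mvk* and *Pmvk*, the kinases of mevalonate and phosphomevalonate, and *Mvd*, the decarboxylase that makes isopentenyl diphosphate, follow. *Mvk* was at 10.6, 9.87, 11.1 and 12.9 CPM in control mAMs, 7.45, 7.54, 8.84 and 9.46 in Cre+ mAMs and 11.4, 15.0 and 13.8 in Cre+ ImmAMs, so each Cre+ mAM library stood below each control library. limma did not call this (−0.48 on the log2 scale, SE 0.144, p-adj = 0.0714, limma), and DESeq2 did (p-adj = 0.0386). *Pmvk* was at 18.3 to 22.9 CPM in control mAMs, 13.2 to 17.1 in Cre+ mAMs 1 to 3 and 20.9 to 25.3 in Cre+ ImmAMs, with replicate 4 of Cre+ mAMs within the controls at 21.4. In Cre+ ImmAMs neither was called against control mAMs (log2 fold changes of 0.26, limma p-adj = 0.151, and 0.15, limma p-adj = 0.337), and both rose against Cre+ mAMs, by log2 fold changes of 0.75 (SE 0.154, p-adj = 0.00196, limma) for *Mvk* and 0.53 (SE 0.134, p-adj = 0.00725, limma) for *Pmvk*. *Mvd* was at 59.96 to 75.9 CPM in control mAMs, 59.3 to 84.1 in Cre+ mAMs and 80.6 to 98.4 in Cre+ ImmAMs, and rose in Cre+ ImmAMs against both (0.33 on the log2 scale, SE 0.0981, p-adj = 0.0135, limma against control mAMs, and 0.45 on the log2 scale, SE 0.105, p-adj = 0.00413, limma against Cre+ mAMs). Without ImmAM_KO replicate 3 the first of these calls was lost (p-adj = 0.0779, limma).

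Of the isoprenoid enzymes, *Idi1* and *Fdps* were called higher in Cre+ ImmAMs and *Ggps1*, at the branch away from sterol, was not. Whether its change differed from theirs was not tested. *Idi1* (chromosome 13, 8885501 to 8892451), the isomerase of isopentenyl diphosphate, was at 80.5, 63.2, 74.4 and 50.9 CPM in control mAMs, 52.9, 67.2, 50.6 and 48.5 in Cre+ mAMs and 125, 105 and 134 in Cre+ ImmAMs. *Fdps* (chromosome 3, 89093588 to 89101959), which makes farnesyl diphosphate, was at 56.6, 45.5, 44.9 and 47.5, 32.1, 46.1, 27.5 and 41.9 and 84.7, 81.8 and 86.3 CPM. Both were higher in each Cre+ ImmAM library than in any mAM library, and the mAM groups overlapped. *Idi1* rose against control mAMs (0.87 on the log2 scale, SE 0.151, p-adj = 4.00e-04, limma) and against Cre+ mAMs (1.10 on the log2 scale, SE 0.161, p-adj = 1.45e-04, limma), and *Fdps* did so too (0.80 on the log2 scale, SE 0.144, p-adj = 5.38e-04, limma and 1.29 on the log2 scale, SE 0.154, p-adj = 2.48e-05, limma). In Cre+ mAMs, *Fdps* had the most negative fold change of the 28 genes, which limma did not call (−0.49 on the log2 scale, SE 0.144, p-adj = 0.0672, limma). It was called by DESeq2 (p-adj = 0.0247) and in limma without mAM_KO replicate 2 (p-adj = 0.00294), the library at 46.1 CPM. *Ggps1*, which makes geranylgeranyl diphosphate for proteins and takes substrate away from sterol, was at 30.5, 26.2, 28.7 and 22.8 CPM in control mAMs, 29.3, 34.8, 33.9 and 24.6 in Cre+ mAMs and 36.2, 26.2 and 33.0 in Cre+ ImmAMs. It overlapped in every comparison and was called in none, with log2 fold changes of 0.28 (limma p-adj = 0.215) in Cre+ mAMs and 0.23 (limma p-adj = 0.162) in Cre+ ImmAMs against control mAMs. Of the 60-base windows of *Fdps* 25.0%, mostly with *Gm43738*, which overlaps it on the same strand, and of *Idi1* 17.3% occur in other genes.

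All 3 enzymes that make squalene and close it into the first sterol rose in Cre+ ImmAMs. *Fdft1* (chromosome 14, 63145150 to 63179578), squalene synthase and the first enzyme committed to sterol, was at 42.9, 43.5, 38.8 and 39.1 CPM in control mAMs, 29.8, 43.4, 32.7 and 34.5 in Cre+ mAMs and 70.7, 72.3 and 79.0 in Cre+ ImmAMs. *Sqle* (chromosome 15, 59315077 to 59331192), squalene epoxidase, was at 57.8, 45.9, 49.3 and 46.6, 37.8, 45.5, 26.7 and 33.9 and 77.2, 82.4 and 82.8 CPM. For both, each Cre+ ImmAM library exceeded each mAM library, and for *Sqle* each Cre+ mAM library, replicate 4 included, also lay below each control library. The rises in Cre+ ImmAMs were called for *Fdft1* (0.85 on the log2 scale, SE 0.115, p-adj = 4.82e-05, limma against control mAMs, and 1.09 on the log2 scale, SE 0.123, p-adj = 1.56e-05, limma against Cre+ mAMs) and *Sqle* (0.70 on the log2 scale, SE 0.146, p-adj = 0.00157, limma, and 1.17 on the log2 scale, SE 0.156, p-adj = 6.51e-05, limma). In Cre+ mAMs, *Sqle* was not called by limma (−0.47 on the log2 scale, SE 0.146, p-adj = 0.0791, limma) and was by DESeq2 (p-adj = 0.0324). *Lss*, lanosterol synthase, went from 23.7 to 31.9 CPM in control mAMs and 24.5 to 29.7 in Cre+ mAMs to 46.0 to 54.4 in Cre+ ImmAMs (0.80 on the log2 scale, SE 0.119, p-adj = 1.10e-04, limma against control mAMs). *Fdft1* overlaps the macrophage gene *Ctsb* on the opposite strand. The kit kept the strand, but the strand setting of the counting is not given in the sources used here.

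Of the 9 enzymes that turn lanosterol into cholesterol, 7 were called higher in Cre+ ImmAMs in both comparisons, and *Nsdhl* and *Ebp* in neither. *Sc5d* (chromosome 9, 42251595 to 42264256), the desaturase of lathosterol, had the largest rise of the list. It was at 23.9, 22.6, 21.2 and 19.0 CPM in control mAMs, 15.1, 23.0, 17.4 and 14.5 in Cre+ mAMs and 57.1, 57.4 and 55.7 in Cre+ ImmAMs. The Cre+ ImmAM libraries lay close together and above every mAM library, 2.63-fold above control mAMs (1.39 on the log2 scale, SE 0.132, p-adj = 1.88e-06, limma) and 3.11-fold above Cre+ mAMs (1.64 on the log2 scale, SE 0.141, p-adj = 1.37e-06, limma). By fold change it stood at place 869 and 600 of the 12889 genes in these comparisons. *Msmo1* (chromosome 8, 64718139 to 64733792), the methyl sterol oxidase, was at 77.0, 57.2, 67.2 and 52.4 CPM in control mAMs, 60.4, 70.5, 55.4 and 58.6 in Cre+ mAMs and 132, 123 and 138 in Cre+ ImmAMs. It rose 2.09-fold against control mAMs (1.06 on the log2 scale, SE 0.123, p-adj = 1.30e-05, limma), and Cre+ mAMs and control mAMs overlapped throughout (−0.02 on the log2 scale, SE 0.123, p-adj = 0.935, limma; 95% interval −0.29 to 0.25).

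*Cyp51* (chromosome 5, 4081145 to 4104746), the lanosterol demethylase, was at 91.6, 76.6, 88.9 and 65.8 CPM in control mAMs, 61.2, 76.0, 45.5 and 59.998 in Cre+ mAMs and 135, 129 and 146 in Cre+ ImmAMs. Replicate 2 of Cre+ mAMs again stood within the controls, and replicates 1, 3 and 4 below them. *Cyp51* rose in Cre+ ImmAMs (0.77 on the log2 scale, SE 0.153, p-adj = 0.00106, limma against control mAMs, and 1.20 on the log2 scale, SE 0.163, p-adj = 7.89e-05, limma against Cre+ mAMs) and was not called in Cre+ mAMs (−0.43 on the log2 scale, SE 0.153, p-adj = 0.116, limma). *Hsd17b7*, the sterol keto-reductase, was at 16.6 to 22.2 CPM in control mAMs, 15.3 to 21.0 in Cre+ mAMs and 34.4 to 38.7 in Cre+ ImmAMs (0.88 on the log2 scale, SE 0.138, p-adj = 1.83e-04, limma against control mAMs). *Tm7sf2* and *Lbr* encode reductases of the same sterol double bond, of which LBR also anchors chromatin at the nuclear envelope. *Tm7sf2* was at 5.35 to 10.3 CPM in control mAMs, 6.16 to 8.50 in Cre+ mAMs and 11.2 to 14.2 in Cre+ ImmAMs (0.84 on the log2 scale, SE 0.204, p-adj = 0.00423, limma against control mAMs). *Lbr* was at 12.0 to 15.8, 11.8 to 13.9 and 14.9 to 20.2 CPM, so that Cre+ ImmAMs overlapped the controls. Its rise was called (0.40 on the log2 scale, SE 0.137, p-adj = 0.0298, limma against control mAMs, and 0.40 on the log2 scale, SE 0.146, p-adj = 0.0483, limma against Cre+ mAMs) but was lost in 5 and 7 of the 10 fits that left out 1 library, with p-adj up to 0.185 (limma, without ImmAM_KO replicate 2).

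*Dhcr7*, the reductase of the last precursor in one branch, was at 58.0 to 69.7 CPM in control mAMs, 58.0 to 68.5 in Cre+ mAMs and 72.6 to 83.9 in Cre+ ImmAMs, a rise without overlap (0.33 on the log2 scale, SE 0.0808, p-adj = 0.00449, limma against control mAMs). *Nsdhl* (chromosome X, 72918557 to 72958514), the sterol dehydrogenase that acts beside MSMO1 and HSD17B7, was at 23.9 to 25.8 CPM in control mAMs, 19.95 to 23.5 in Cre+ mAMs and 23.0 to 28.1 in Cre+ ImmAMs. Its Cre+ mAM libraries were all below the controls without a call (−0.15 on the log2 scale, SE 0.0964, p-adj = 0.371, limma), and Cre+ ImmAMs overlapped both groups. Against Cre+ mAMs its p-adj was 0.0902 (limma), and it was called when mAM_KO replicate 4 was included (p-adj = 0.0456, limma). *Ebp* (chromosome X, 8185329 to 8193512), the sterol isomerase, was at 47.6 to 52.7 CPM in control mAMs, 44.6 to 56.7 in Cre+ mAMs and 42.4 to 50.9 in Cre+ ImmAMs. Its log2 fold change in Cre+ ImmAMs against control mAMs was −0.14 (SE 0.0798, limma p-adj = 0.168, 95% interval −0.31 to 0.03), so the interval left out rises of the size seen in *Sc5d*, *Msmo1* and *Cyp51*.

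**Figure D3:**
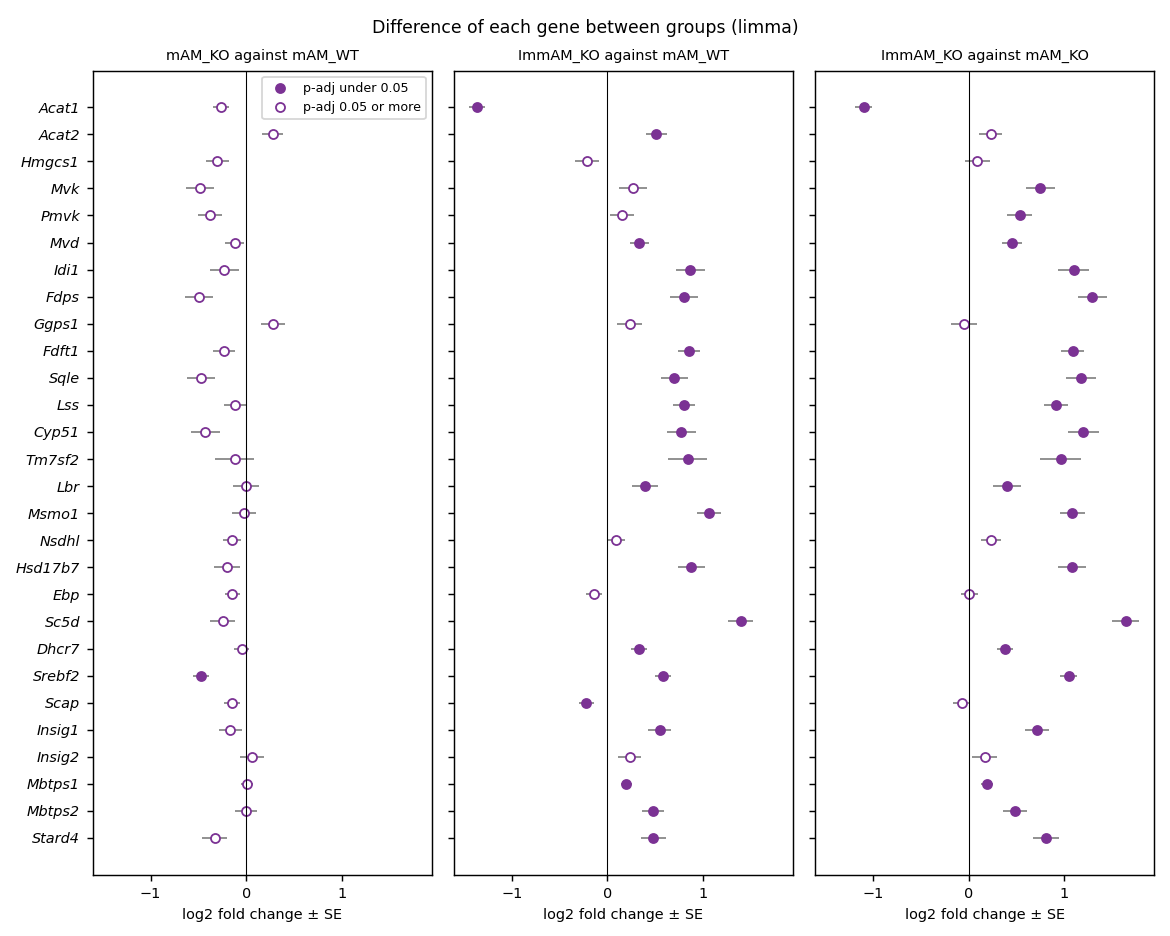
log2 fold change (points) with its standard error (bars) of each of the 28 genes in the 3 comparisons, from the limma fit of 10 libraries, with filled points at p-adj under 0.05. In the left panel only *Srebf2* is filled. In the middle and right panels 21 points are filled each, and *Sc5d* lies furthest right and *Acat1* furthest left.

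*Srebf2* (ENSMUSG00000022463, chromosome 15, 82147181 to 82205379), which encodes SREBP2, was called in all 3 comparisons and in opposite directions. It was at 169, 172, 146 and 172 CPM in control mAMs, 122, 126, 109 and 148 in Cre+ mAMs and 228, 270.3 and 239.9 in Cre+ ImmAMs. Replicates 1 to 3 of Cre+ mAMs stood below every control library, replicate 4 stood just above the lowest control at 148 against 146 CPM, and Cre+ ImmAMs stood above all. It fell in Cre+ mAMs, with means of 165 ± 12.7 CPM (SD, n = 4) and 119 ± 9.09 CPM (SD, n = 3) in the fit (−0.47 on the log2 scale, SE 0.0848, p-adj = 0.0114, limma). With all 11 libraries the fold change was −0.39 (p-adj = 0.0465, limma). The call was lost without mAM_KO replicate 3 (p-adj = 0.0584, limma), without a variance trend (p-adj = 0.0581, limma) and with the replicate number as a block (p-adj = 0.0564, limma). Whether the numbers pair the libraries is not known. It rose in Cre+ ImmAMs to 246 ± 22.0 CPM (SD, n = 3), 1.49-fold above control mAMs (0.58 on the log2 scale, SE 0.0848, p-adj = 1.01e-04, limma) and 2.06-fold above Cre+ mAMs (1.05 on the log2 scale, SE 0.0906, p-adj = 1.45e-06, limma), under each alternative and with each library left out. The gene holds the microRNA gene *Mir33* in its span, whose product cannot be read from these values.

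The partners of SREBP2 moved unequally. *Scap*, the escort, was at 83.8, 92.3, 80.3 and 99.3 CPM in control mAMs, 83.6, 74.7, 82.1 and 94.0 in Cre+ mAMs and 75.3, 79.0 and 74.1 in Cre+ ImmAMs. All 3 Cre+ ImmAM libraries lay just below the lowest control library, and the fall was called (−0.22 on the log2 scale, SE 0.0822, p-adj = 0.0421, limma), though under only 4 of 10 alternatives and in 4 of 10 fits with a library left out. *Insig1* (chromosome 5, 28071363 to 28078662), an ER anchor of SCAP that is itself a target of SREBP2, was at 86.6, 84.3, 81.7 and 83.1 CPM in control mAMs, 78.5, 92.6, 57.4 and 71.1 in Cre+ mAMs and 127, 122 and 119 in Cre+ ImmAMs. The control libraries lay within a narrow range, which the Cre+ mAM libraries crossed on both sides and all Cre+ ImmAM libraries exceeded. *Insig1* rose in Cre+ ImmAMs (0.55 on the log2 scale, SE 0.122, p-adj = 0.00245, limma against control mAMs, and 0.71 on the log2 scale, SE 0.130, p-adj = 7.99e-04, limma against Cre+ mAMs) and was not called in Cre+ mAMs (−0.17 on the log2 scale, SE 0.122, p-adj = 0.429, limma). *Insig2*, the second anchor, was at 17.4 to 23.9 CPM in control mAMs, 18.6 to 23.2 in Cre+ mAMs and 22.2 to 25.5 in Cre+ ImmAMs, and was called in no comparison (log2 fold change 0.23 in Cre+ ImmAMs against control mAMs, SE 0.123, p-adj = 0.140, limma, 95% interval −0.03 to 0.50).

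*Mbtps1* and *Mbtps2* encode the proteases that release SREBP2 in the Golgi in turn. *Mbtps1* was at 97.9 to 105.7 CPM in control mAMs, 98.7 to 107 in Cre+ mAMs and 115 to 118 in Cre+ ImmAMs, a rise of small size (0.20 on the log2 scale, SE 0.0599, p-adj = 0.0156, limma against control mAMs). Against Cre+ mAMs it was lost in 5 of the 10 fits that left out 1 library (p-adj up to 0.116, limma). *Mbtps2* was at 43.0 to 53.9, 42.7 to 57.9 and 62.4 to 73.2 CPM and rose in Cre+ ImmAMs (0.48 on the log2 scale, SE 0.114, p-adj = 0.00380, limma against control mAMs, and 0.48 on the log2 scale, SE 0.122, p-adj = 0.00727, limma against Cre+ mAMs). Both lay above every mAM library in each Cre+ ImmAM library. Of the 60-base windows of *Mbtps2* 28.5% occur in other genes, mostly *Yy2*, which lies inside it on the same strand. *Stard4*, a carrier that moves sterol between membranes and a target of SREBP2, was at 46.6, 41.8, 48.0 and 34.9 CPM in control mAMs, 34.2, 39.8, 28.4 and 36.8 in Cre+ mAMs and 59.2, 56.8 and 61.9 in Cre+ ImmAMs. It rose in Cre+ ImmAMs without overlap (0.48 on the log2 scale, SE 0.127, p-adj = 0.00720, limma against control mAMs, and 0.81 on the log2 scale, SE 0.135, p-adj = 4.13e-04, limma against Cre+ mAMs). In Cre+ mAMs its groups overlapped (−0.33 on the log2 scale, SE 0.127, p-adj = 0.137, limma).

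**Figure D4:**
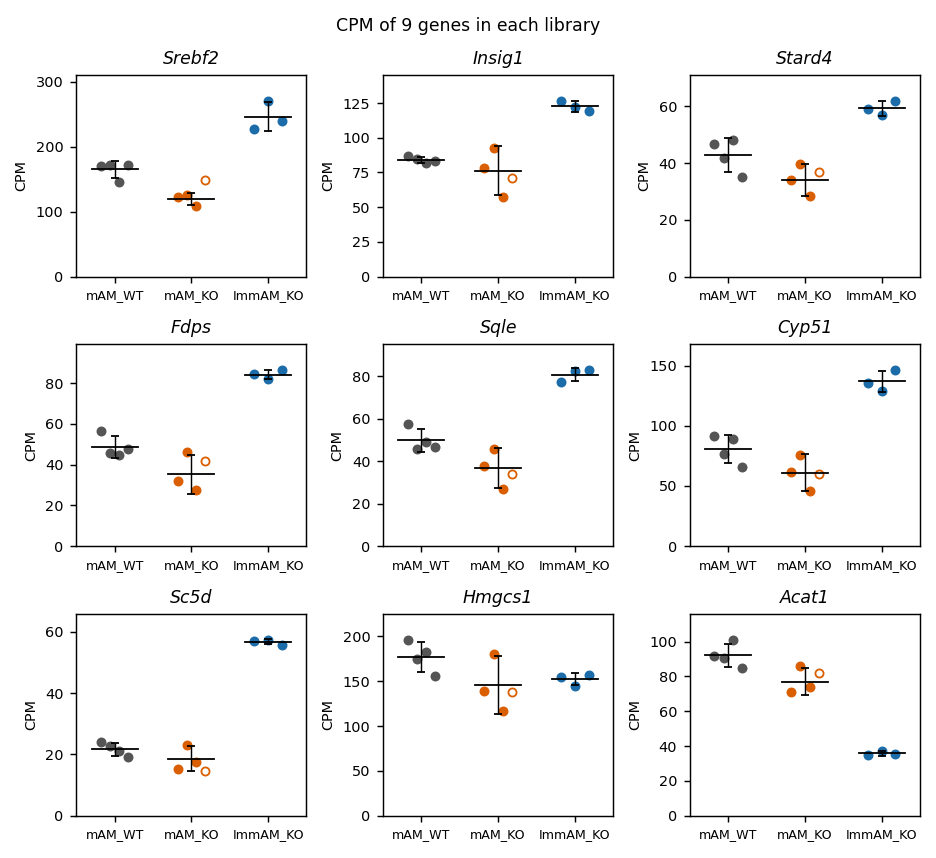
CPM (vertical axes, from 0) of 9 of the genes in each library, with the mean (line) and SD (bar) of control mAMs (n = 4), Cre+ mAMs (n = 3, replicate 4 drawn open and left out of both) and Cre+ ImmAMs (n = 3). *Sc5d* was at 21.7, 18.5 and 56.7 CPM on average, *Srebf2* at 165, 119 and 246 CPM, and *Acat1* at 92.2, 77.0 and 35.8 CPM, while the 3 groups overlap in *Hmgcs1*.

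Genes beside the pathway were read from lists written from general knowledge, and their counts stand beside 22.8% higher and 25.3% lower of all genes tested against control mAMs, and 17.7% and 20.2% against Cre+ mAMs. In Cre+ mAMs, 3042 of all 12889 genes tested had an unadjusted p under 0.05 (limma). Of 17 genes of the isoprenoid branches that lead to dolichol, coenzyme Q and the lipid anchors of proteins, 1 was called higher and 5 lower in Cre+ ImmAMs against control mAMs, 1 and 3 against Cre+ mAMs, and 0 and 0 in Cre+ mAMs (limma; 0 by edgeR, 0 by DESeq2 and 1 at an unadjusted p under 0.05). Their median fold changes were −0.06, −0.02 and −0.10. The largest were those of *Trit1*, a transfer RNA isopentenyl transferase, at −0.70 (p-adj = 0.00300, limma), *Srd5a3*, a reductase of dolichol synthesis, at −0.55 (p-adj = 1.60e-05, limma), and *Zmpste24*, a protease of prenylated proteins, at −0.40 (p-adj = 0.00700, limma), all in Cre+ ImmAMs. Of 8 electron donors of the sterol oxidases and their partners, 1 was higher and 4 lower in Cre+ ImmAMs against control mAMs. *Cyb5r3*, the reductase of cytochrome b5, fell by 0.88 on the log2 scale (p-adj = 1.37e-07, limma), and *Cyb5a*, a cytochrome b5, by 0.78 (p-adj = 2.41e-05, limma), while *Cyb5r1* rose by 0.81 (p-adj = 3.87e-05, limma). Against Cre+ mAMs, 1 was higher and 2 lower. *Por*, which feeds CYP51 and SQLE, was the 1 donor called by limma in Cre+ mAMs, at −0.34 (p-adj = 0.0377, limma). There edgeR called 1 of the 8 and DESeq2 2, and 3 had an unadjusted p under 0.05 (limma). Of 28 genes of ER-associated degradation and COPII transport, 2 were higher and 11 lower in Cre+ ImmAMs against control mAMs, 3 and 10 against Cre+ mAMs, and 0 and 0 in Cre+ mAMs (limma; 0 by edgeR, 0 by DESeq2 and 3 at an unadjusted p under 0.05). Against control mAMs, *Trim25*, a ubiquitin ligase, fell by 0.73 on the log2 scale (p-adj = 1.49e-04, limma) and *Sar1b*, a COPII GTPase, by 0.52 (p-adj = 0.00358, limma), and *Erlin1*, which acts in the degradation of sterol-regulated proteins, rose by 0.55 (p-adj = 7.64e-05, limma).

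Genes of proliferation were lower in Cre+ ImmAMs, where 19 of the 28 sterol genes were called higher and 2 lower against control mAMs. All 14 genes of a proliferation list were called lower in Cre+ ImmAMs in both comparisons, and their sum was at 450 to 554 CPM in control mAMs, 380 to 476 in Cre+ mAMs and 52.7 to 58.3 in Cre+ ImmAMs. *Ccnb2*, *Ccnb1* and *Rrm2* had the largest falls, with log2 fold changes of −5.04, −4.83 and −4.43 against control mAMs. In Cre+ mAMs *Mcm5* alone of the list was called by limma (log2 fold change −0.82, limma p-adj = 0.0314). There edgeR called 1 of the 14 and DESeq2 2, and 2 had an unadjusted p under 0.05 (limma). The part of proliferation, and of the monocyte and interstitial macrophage markers that were higher in the same libraries, in the values of the sterol genes was not tested.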

How the data were processed

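RNA of sorted AMs was read from stranded, poly(A)-selected libraries. According to the study's methods, the authors used Cutadapt to trim, RSEM (version 1.3.1 in the submitters' processing notes) to quantify against the transcriptome of GRCm38, and limma to scale by TMM, and set a floor of 1 CPM in no fewer than 3 samples. The deposited values are CPM per library and gene, each a number of reads plus 0.5 times a fixed step, and whole reads were recovered within 0.01 for 100% of values. Depth was 16659960 to 37873532 reads per library.

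Groups come from the sample titles. The legends of the study count mice, and the labels do not say whether a library is 1 animal. *Xist* and Y-linked genes were read in every library at unequal levels, with *Xist* at 55.5 to 539 CPM over all libraries. The p-values therefore measure the spread between libraries. log2 of the deposited CPM, with no further pseudocount, was fitted in limma 3.58.1 (R 4.3.3) with 3 group means, a variance trend, two-sided moderated tests and Benjamini-Hochberg adjustment over 12889 genes. The 95% intervals use the fit's 12.63 degrees of freedom. edgeR 4.0.16 and DESeq2 1.42.0 were run on the recovered reads and called 566 and 1368 genes in Cre+ mAMs, where limma called 624. The fits were tested on simulated data. Alternatives were all 11 libraries, a pseudocount, other filters, median-ratio scaling, no variance trend, only the 2 groups compared, a replicate block and each library left out. Every member is named. From the side lists, at most the 3 called genes with the largest change in each are named. *Por* and *Mcm5*, the 1 gene of their lists called by limma in Cre+ mAMs, were named after their values were seen. The members and lists were chosen with earlier results of these data known. Positions and transcript windows are from GENCODE vM21, promoters from RefSeq GRCm38.p6.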

Additional observations from a re-analysis of the deposited data

Results flagged for a closer look

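In 56 groups of 4 libraries (28 genes in control mAMs and in Cre+ mAMs), 5 had 1 library far from the other 3 by Dixon's test, and chance alone gives about 1 in 20. These were *Lss* at 23.7 CPM and *Nsdhl* at 25.8 CPM in mAM_WT replicate 2, *Srebf2* at 146 CPM in mAM_WT replicate 3, *Hsd17b7* at 21.0 CPM in mAM_KO replicate 1 and *Ebp* at 56.7 CPM in mAM_KO replicate 4. *Srebf2* was called lower in Cre+ mAMs and higher in Cre+ ImmAMs against the same control libraries, and the difference between the Cre+ groups was itself called, at a log2 fold change of 1.05 (limma p-adj = 1.45e-06).

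mAM_KO replicate 4, which was outside the tests, stood above the highest control library in 4 genes. They were *Acat2* at 24.4 CPM, *Mvd* at 84.1 CPM, *Ebp* at 56.7 CPM and *Mbtps1* at 107 CPM.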

How the results depend on the processing

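Over the 28 genes and 3 comparisons, 817 of the gene values under alternative settings kept their direction and their side of the threshold, 12 lost a call, 5 gained one and 6 changed sign. With single libraries left out, these were 786, 26, 8 and 20. The sign changes were of fold changes near 0: *Lbr* in Cre+ mAMs with median-ratio scaling (0.0013), *Mbtps2* in Cre+ mAMs by edgeR (0.0033) and DESeq2 (0.00072), *Ggps1* between the Cre+ groups with all 11 libraries (0.053) and *Ebp* there with all 11 libraries (−0.071) and with the replicate block (−0.051). With single libraries left out, the genes with a sign change ranged in Cre+ mAMs from −0.262 to 0.0525 (*Tm7sf2*), −0.0452 to 0.0886 (*Lbr*), −0.117 to 0.0768 (*Msmo1*), −0.0829 to 0.00553 (*Dhcr7*), −0.322 to 0.023 (*Insig1*), −0.0188 to 0.157 (*Insig2*), −0.0234 to 0.0359 (*Mbtps1*) and −0.124 to 0.0948 (*Mbtps2*), and between the Cre+ groups from −0.0584 to 0.255 (*Hmgcs1*), −0.148 to 0.0845 (*Ggps1*) and −0.0677 to 0.0633 (*Ebp*). The number of genes called lower in Cre+ mAMs was 4 by DESeq2, 0 without a variance trend and 0 to 7 with single libraries left out. The number called lower in Cre+ ImmAMs against control mAMs was 1 with all 11 libraries, median-ratio scaling, edgeR or no variance trend and 1 to 2 with single libraries left out, *Scap* being the gene lost. The median fold change ranged from 0.40 (without mAM_WT replicate 4) to 0.51 in Cre+ ImmAMs against control mAMs and from 0.56 (without mAM_KO replicate 3) to 0.65 against Cre+ mAMs. Same-numbered libraries did not deviate together (correlations −0.13 to 0.06). The check covers few pairs and leaves out mAM_KO replicate 4, so it cannot tell whether the numbers pair the libraries. With the replicate block, 0 genes were called lower in Cre+ mAMs, 18 higher and 1 lower in Cre+ ImmAMs against control mAMs, and 18 higher and 1 lower against Cre+ mAMs. The cause of these changes was not tested.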
